A study of Mus musculus with 2 samples.

Results

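Trimethylation of histone H3 at lysine 4 (H3K4me3) was examined at the genes of 10 enzymes that make or break down neurotransmitters, in neurons sorted for NOS1, the neuronal nitric oxide synthase, from the mouse small intestine. The genes were taken by name and not by a cutoff on their signal, though earlier results of these data were known. They were Chat, Ache, Th, Ddc, Dbh, Tph1, Tph2, Gad1, Gad2 and Maoa. These are 10 of 21887 annotated protein-coding genes on the same chromosomes as the deposited peaks. Of the 2 libraries in the series, 1 was the H3K4me3 immunoprecipitate and the other its input chromatin; the peak list came from the former, so no value has a replicate and no test was possible. Both libraries came from the same kind of sorted neuron. Strain, genotype, age, any treatment, the label used for sorting and the number of animals pooled are not stated in the labels. A gene was counted as marked when a peak overlapped, by 1 bp or more, its gene model on mm10 extended by 1 kb to each side. The score is the authors' own value for each peak, on a scale that is not given, and is used here only to rank peaks within this list.

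H3K4me3 is a histone mark found mainly at promoters that are active or poised, and CpG-rich promoters carry it in most cell types. Each classical transmitter is defined by an enzyme that makes it: choline acetyltransferase for acetylcholine, tyrosine hydroxylase for catecholamines, tryptophan hydroxylase for serotonin and glutamate decarboxylase for GABA. In the gut wall nitrergic neurons are mainly inhibitory motor neurons, while acetylcholine is the main excitatory transmitter. Serotonin in the gut comes mostly from enterochromaffin cells of the epithelium.

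Of the 10 enzyme genes, 4 were marked (Ache, Maoa, Gad1 and Gad2) and 6 were not (Chat, Th, Ddc, Dbh, Tph1 and Tph2), while 67.0% of all protein-coding genes were marked by the same rule. The acetylcholine-degrading enzyme gene Ache and the monoamine-degrading enzyme gene Maoa carried wide peaks over their start sites. The GABA-synthesising enzyme genes Gad1 and Gad2 each carried 1 narrow, low-scored peak. No synthetic enzyme gene of acetylcholine, catecholamines or serotonin had a peak. Within 1 kb of an annotated start site, 3 of the 10 enzyme genes had a peak (Ache, Maoa and Gad2), against 63.0% of the 17492 protein-coding genes whose start sites were in the promoter table used. In these 3 genes the peak covered the start site itself, as it did in 55.9% of those 17492 genes.

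**Figure D1:**
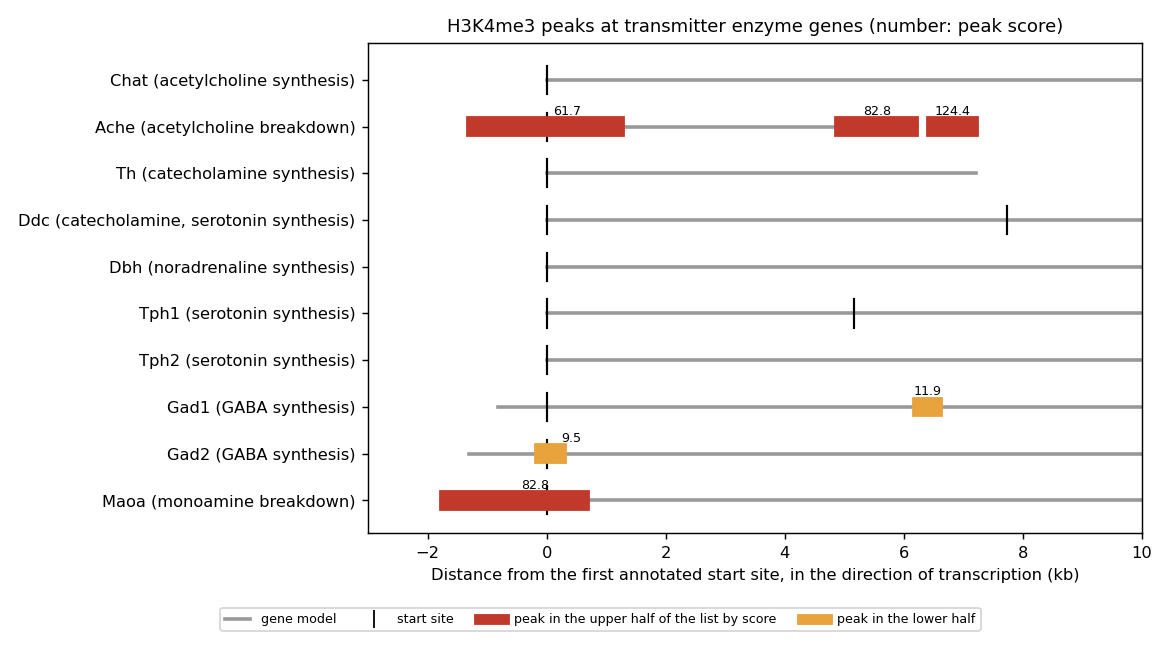
H3K4me3 peaks at the 10 enzyme genes, drawn to scale by distance in kb from the first annotated start site; grey lines are gene models (cut at the right edge where they are longer), black ticks start sites, boxes peaks and the numbers above them peak scores. Wide peaks lie over the starts of Ache and Maoa, a narrow one over the start of Gad2 and one 6156 bp into Gad1, and Chat, Th, Ddc, Dbh, Tph1 and Tph2 have no box.

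The promoter windows of 7 start sites are printed to show how marked and unmarked starts compare in CpG content. They run from 250 bases before to 50 bases after the start site, come from RefSeq on GRCm38.p6 and are written in the direction of transcription, with each CpG dinucleotide (the letters CG, which read the same on both strands) in capitals. The first 3 had a peak over the start: Ache (plus strand, chr5:137288004-137288303), Maoa (plus strand, chrX:16619448-16619747) and Gad2 (plus strand, chr2:22622077-22622376).
Ache: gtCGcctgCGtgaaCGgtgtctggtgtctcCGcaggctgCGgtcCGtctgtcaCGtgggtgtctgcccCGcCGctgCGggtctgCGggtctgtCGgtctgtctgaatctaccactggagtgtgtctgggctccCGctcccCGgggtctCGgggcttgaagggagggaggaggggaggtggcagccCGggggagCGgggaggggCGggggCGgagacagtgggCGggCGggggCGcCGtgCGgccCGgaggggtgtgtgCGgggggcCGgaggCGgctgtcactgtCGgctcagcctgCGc
Maoa: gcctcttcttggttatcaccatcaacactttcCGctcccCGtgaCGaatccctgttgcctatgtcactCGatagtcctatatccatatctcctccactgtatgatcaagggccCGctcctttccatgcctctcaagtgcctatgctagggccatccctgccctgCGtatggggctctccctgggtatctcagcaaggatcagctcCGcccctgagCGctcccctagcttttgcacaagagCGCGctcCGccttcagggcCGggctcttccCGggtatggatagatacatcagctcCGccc
Gad2: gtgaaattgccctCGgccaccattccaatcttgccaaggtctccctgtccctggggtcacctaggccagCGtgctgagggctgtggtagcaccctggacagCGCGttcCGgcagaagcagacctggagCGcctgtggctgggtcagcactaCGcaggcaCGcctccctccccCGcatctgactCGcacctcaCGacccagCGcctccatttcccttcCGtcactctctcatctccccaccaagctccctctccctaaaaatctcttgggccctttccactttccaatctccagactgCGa
The next 3 had at least 12 CpG but no peak within 1 kb of the start: Gad1 (plus strand, chr2:70561879-70562178), Th (minus strand, chr7:142899946-142900245) and the inner start of Tph1 (minus strand, chr7:46667328-46667627).
Gad1: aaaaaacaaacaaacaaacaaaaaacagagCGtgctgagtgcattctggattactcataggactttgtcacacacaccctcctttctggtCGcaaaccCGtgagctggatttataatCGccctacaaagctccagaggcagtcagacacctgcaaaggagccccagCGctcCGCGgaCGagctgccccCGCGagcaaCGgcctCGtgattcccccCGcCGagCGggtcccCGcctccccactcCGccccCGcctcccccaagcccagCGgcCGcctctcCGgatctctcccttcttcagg
Th: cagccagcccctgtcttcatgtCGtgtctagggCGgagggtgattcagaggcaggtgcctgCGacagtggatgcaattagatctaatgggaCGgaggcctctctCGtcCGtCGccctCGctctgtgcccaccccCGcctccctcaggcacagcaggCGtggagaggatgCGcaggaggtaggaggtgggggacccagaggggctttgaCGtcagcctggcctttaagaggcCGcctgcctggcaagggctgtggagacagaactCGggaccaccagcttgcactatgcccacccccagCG
Tph1: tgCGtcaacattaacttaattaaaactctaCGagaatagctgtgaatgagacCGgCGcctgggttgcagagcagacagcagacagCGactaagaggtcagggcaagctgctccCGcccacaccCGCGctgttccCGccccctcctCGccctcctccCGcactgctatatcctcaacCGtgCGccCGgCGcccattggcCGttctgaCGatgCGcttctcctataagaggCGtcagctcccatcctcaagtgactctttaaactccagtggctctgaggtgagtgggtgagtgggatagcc
The last, of Dbh (plus strand, chr2:27165257-27165556), had few CpG and no peak.
Dbh: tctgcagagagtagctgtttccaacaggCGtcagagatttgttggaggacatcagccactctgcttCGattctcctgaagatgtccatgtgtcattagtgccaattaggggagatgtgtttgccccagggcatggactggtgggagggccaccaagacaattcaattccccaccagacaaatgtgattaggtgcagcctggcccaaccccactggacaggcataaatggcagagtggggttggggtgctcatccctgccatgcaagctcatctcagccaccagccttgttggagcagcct

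Across the 21263 start sites of protein-coding genes in the table, the median window held 13 CpG, and 97.6% of windows with over 20 CpG, 91.6% of those with 12 to 20, 55.7% of those with 6 to 11, 20.7% of those with 3 to 5 and 5.34% of those with 0 to 2 had a peak within 1 kb. The 10 enzyme genes had 12 start sites in the table, because Ddc and Tph1 had a pair each. At the 6 start sites with under 12 CpG no peak was called, and 25.9% of all such starts had one. These were the starts of Chat (10 CpG), Tph2 (9 CpG) and Dbh (2 CpG), both starts of Ddc (5 and 2 CpG) and the outer start of Tph1 (5 CpG). Among the 6 start sites with at least 12 CpG, 3 had a peak (Ache with 30 CpG, Maoa and Gad2 with 14 CpG each) and 3 had none (Gad1 with 21 CpG, the inner start of Tph1 with 19 CpG and Th with 15 CpG), whereas 95.4% of all 11231 such starts had a peak. Thus Th, Gad1 and the inner Tph1 start stood among the 518 CpG-rich starts, 4.61% of that class, without a called peak.

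**Figure D2:**
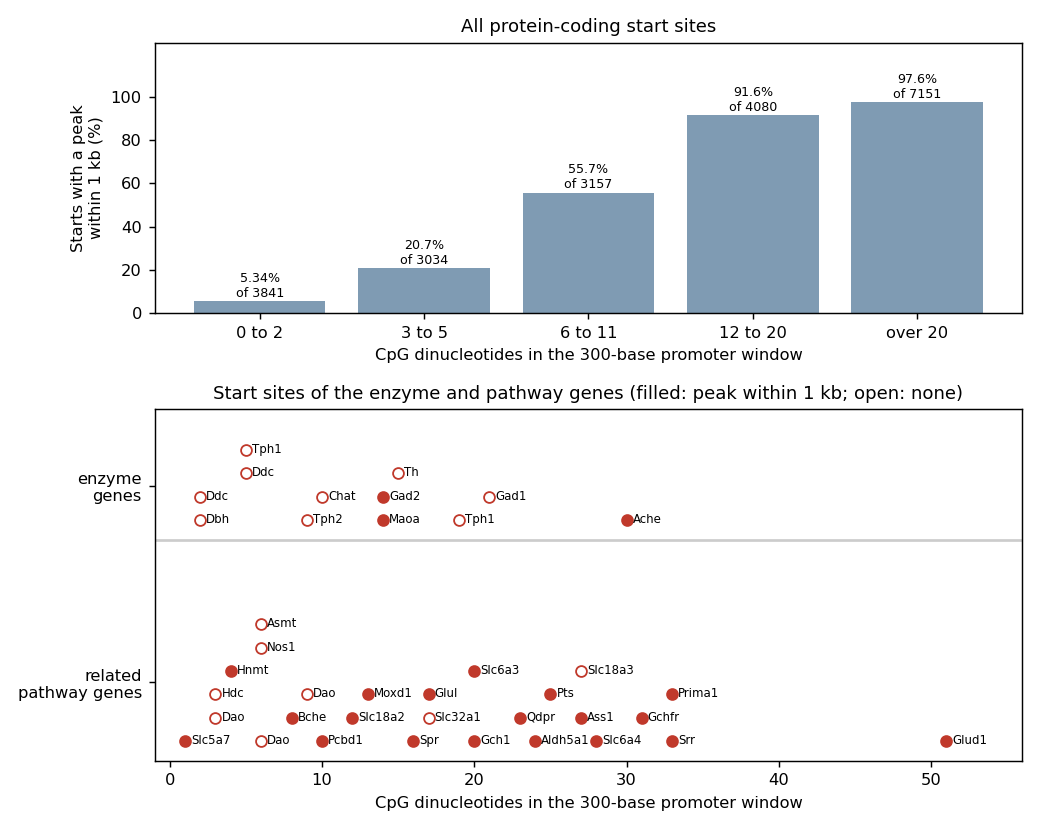
Top, the percentage of all protein-coding start sites with a peak within 1 kb, by the number of CpG dinucleotides in the 300-base promoter window (x axis in classes; the number under each percentage is the number of start sites). Bottom, the start sites of the enzyme and related pathway genes by CpG count, filled where a peak lay within 1 kb and open where none did; Th, Tph1 and Gad1 are open at 15, 19 and 21 CpG, in classes where 91.6% and 97.6% of starts had a peak.

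For acetylcholine, the synthetic enzyme gene was unmarked and the breakdown enzyme gene was marked. Chat, which encodes choline acetyltransferase (minus strand, chromosome 14, 32408203 to 32465909), had no peak over its 57.7 kb model. Slc18a3, which encodes the vesicular acetylcholine transporter, lies within the Chat model and had none either, although its window held 27 CpG. The nearest peaks to Chat lay 47.4 kb upstream at the start of Ercc6 (949 bp, score 174.67) and 85.7 kb downstream at the start of Ogdhl (812 bp, score 88.88), so the cholinergic locus sat in a peak-free interval of 191 kb between marked neighbours.

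Ache, which encodes acetylcholinesterase (plus strand, chromosome 5, 137288247 to 137294466), had 3 peaks. The peak at its start was 2640 bp wide, scored 61.69 and reached from 1335 bp before to 1304 bp after the start site. Its width exceeded that of 90.6% of the 11024 genes with a peak within 1 kb of a start, but its score exceeded only 19% of them. The other Ache peaks lay at the far end of the gene. One (1392 bp, score 82.75) began 4847 bp after the start site, and the other (865 bp, score 124.4) began 175 bp beyond the model. Both lay within 1 kb of the start of Ufsp1, a neighbouring gene, and the latter also within 1 kb of the Srrt model, so only the peak at the start was Ache's alone among protein-coding genes. That peak also met the model of Gm42456, a long noncoding RNA gene.

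Of the 5 related genes of acetylcholine handling 3 were marked, near the 67.0% of all protein-coding genes. Prima1, whose product anchors acetylcholinesterase in neuronal membranes, had a start peak 2102 bp wide that scored 113.83. Bche, which encodes butyrylcholinesterase, had one 1403 bp wide that scored 64.13. Slc5a7, the high-affinity choline transporter gene, had only a 577-bp peak, scored 13.05, beginning 290 bp after its start, whose window held 1 CpG. Colq, whose product anchors acetylcholinesterase at the neuromuscular junction, had no peak.

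For catecholamines, none of the 3 synthetic enzyme genes was marked. Th, the gene of the rate-limiting tyrosine hydroxylase (minus strand, chromosome 7, 142892779 to 142899995), had no peak nearer than 67.5 kb upstream, where a 1020-bp peak scored 17.72 lay at the start of Ascl2, and 232 kb downstream at the start of Igf2. Ddc, whose product decarboxylates L-DOPA and 5-hydroxytryptophan and so serves both dopamine and serotonin synthesis (minus strand, chromosome 11, 11814101 to 11898144), had no peak at either start. It was the enzyme gene nearest to the limit of the rule: a 184-bp peak scored 10.61 lay 1.72 kb beyond its downstream end. Dbh, which encodes the dopamine beta-hydroxylase that makes noradrenaline (plus strand, chromosome 2, 27165507 to 27183204), had its nearest peak 23 kb upstream at the start of Fam163b, 338 bp wide with a score of 6.86.

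Maoa, which encodes monoamine oxidase A, the enzyme that oxidises serotonin and noradrenaline (plus strand, chromosome X, 16619698 to 16687812), had 1 peak, 2510 bp wide and scored 82.78. It reached from 1795 bp before to 714 bp after the start site, was wider than 88.7% of start peaks and had a score above 24.5% of them. Like Ache, Maoa therefore lay above the upper quartile of all start peaks for width and below the lower quartile for score; the quartiles were 1083 and 2014 bp for width and 85.1 and 192.4 for score. No other peak lay within 1297066 bp upstream of the Maoa model. Downstream, the next peaks were those of Maob, the gene of the related monoamine oxidase B, at the upper end of its model (203 bp, score 6.28, and 492 bp, score 23.13).

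Of the 9 related catecholamine genes 7 were marked, near the 67.0% of all protein-coding genes. Aldh2, whose product oxidises the aldehydes that monoamine oxidase leaves, had a peak of 2333 bp scored 163.55. The vesicular monoamine transporter gene Slc18a2 had a 1357-bp peak scored 38.54 over its start, while Th, Ddc, Dbh, Tph1 and Tph2 had no peak. The peak at Slc18a1, the other vesicular monoamine transporter gene (1601 bp, score 238.63), also lay within 1 kb of Atp6v1b2. Slc6a3, the dopamine transporter gene, had a narrow start peak (481 bp, score 13.95), and Moxd1, a relative of Dbh, a wider one (918 bp, score 54.08). Slc6a2, the noradrenaline transporter gene, and Pnmt, whose product turns noradrenaline into adrenaline, had none.

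For serotonin, neither tryptophan hydroxylase gene was marked. Tph1, the form of the gut epithelium (minus strand, chromosome 7, 46644641 to 46672537), had no peak at its outer start or at the CpG-rich inner start. The nearest (1501 bp, score 109.29) lay 4.28 kb downstream at the start of Sergef. Tph2, the neuronal form (minus strand, chromosome 10, 115078641 to 115185022), had no peak over its 106 kb model, and the nearest lay 65.3 kb upstream at the start of Tbc1d15 (1174 bp, score 221.01). Slc6a4, the serotonin transporter gene, was marked by an 842-bp peak scored 18.89 over its start and a 309-bp peak scored 57.01 before it. Aanat and Asmt, whose products turn serotonin into melatonin, had no peak. Serotonin breakdown was represented by Maoa, described above.

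The 6 genes that make, recycle or regulate tetrahydrobiopterin were all marked at a start, against 63.0% of all genes in the promoter table. For 5 of them the window held at least 12 CpG, a class in which 95.4% of all starts had a peak, so the count is near that share. This cofactor is required by tyrosine hydroxylase and both tryptophan hydroxylases, whose genes were unmarked, and also by nitric oxide synthases. Gch1, the gene of the rate-limiting GTP cyclohydrolase, had a start peak 1826 bp wide and scored 166.17. Scores were 209.51 at Pts and 198.12 at Spr, the next synthetic steps, and 160.33 at Qdpr, which recycles the cofactor. Gchfr, the feedback regulator of the cyclohydrolase, had a 1065-bp peak scored 71.81, and Pcbd1, the gene of another recycling enzyme, had the lowest score of the 6, 20.99, at a width of 466 bp. The window of Pcbd1 held 10 CpG.

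For GABA, both glutamate decarboxylase genes were marked, but weakly and in different places. Gad2, which encodes GAD65 (plus strand, chromosome 2, 22621015 to 22693877), had a 522-bp peak scored 9.48, from 198 bp before to 323 bp after its start site. It was wider than 5.9% of start peaks and scored above 3.32% of them. Gad1, which encodes GAD67 (plus strand, chromosome 2, 70561303 to 70602014), had no peak at its start, and its single peak (489 bp, score 11.87) lay inside the model from 6156 to 6644 bp after the start site. The gene table gives no exons, so whether this peak lies in an exon or an intron is not stated.

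Slc32a1, the vesicular GABA transporter gene, had no peak although its window held 17 CpG. The peaks at genes of GABA breakdown scored higher than those at the 2 synthetic genes: Abat, the GABA transaminase gene, had 1665 bp at a score of 116.59, and Aldh5a1, whose product acts next, had 1588 bp at 143.06. So did those of glutamate metabolism, with scores of 116.76 at Gls2, a glutaminase gene, 192.36 at Glud1 and 200.96 at Glul, the glutamine synthetase gene. However, the Aldh5a1 peak also lay within 1 kb of Gpld1, and the Glud1 peak within 1 kb of Shld2, both protein-coding genes. In all, 6 of these 8 related genes carried a peak, near the 67.0% of all protein-coding genes.

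**Figure D3:**
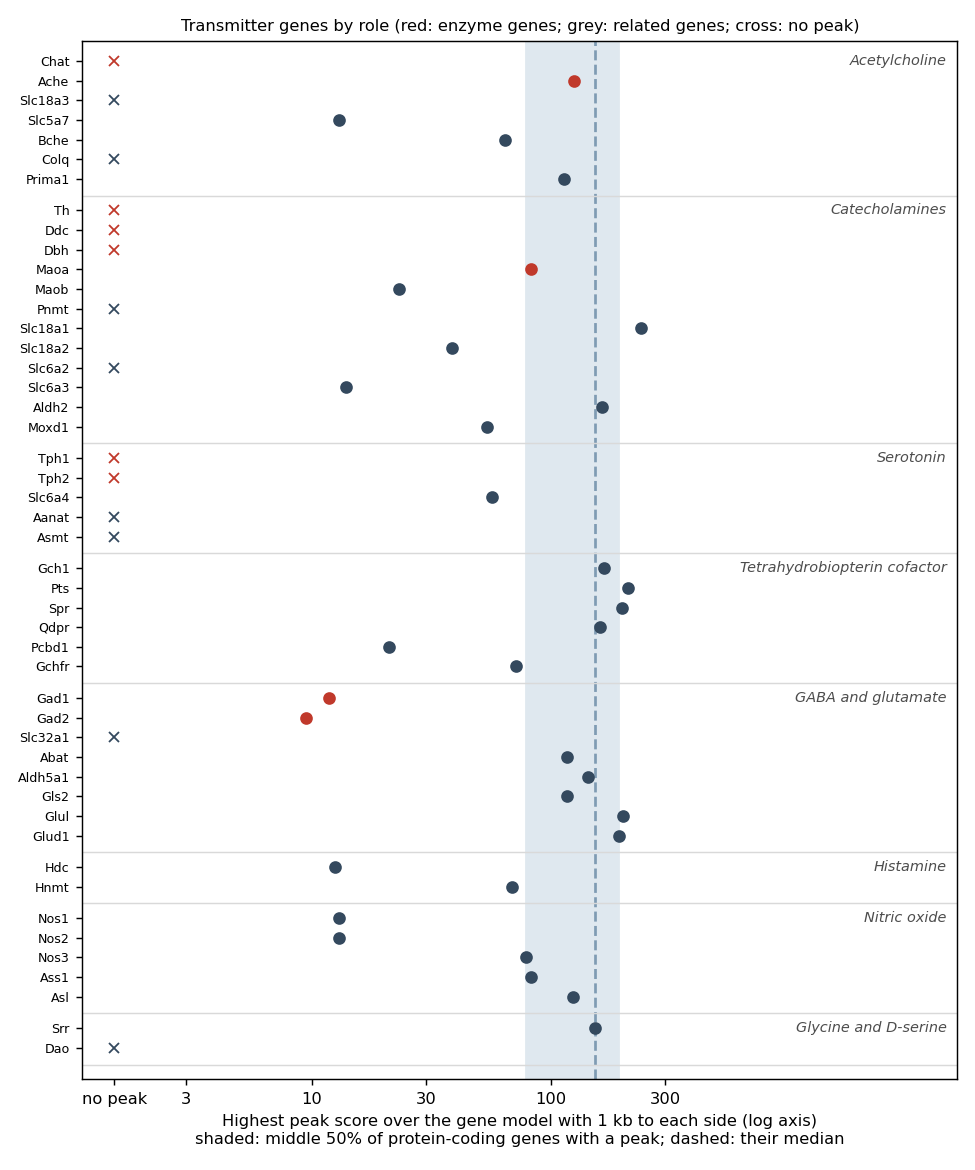
Highest peak score (x axis, log scale, no unit given by the authors) over the model with 1 kb to each side for the 10 enzyme genes (red) and 37 of the related genes (grey), grouped by transmitter; crosses at the left mark genes with no peak, the shaded band the middle 50% of protein-coding genes with a peak and the dashed line their median of 152.6. Chat, Th, Ddc, Dbh, Tph1 and Tph2 are crosses, Gad1 and Gad2 lie at 11.87 and 9.48, and none of the enzyme genes reaches the median. Ache lies at 124.4, the score of the peak beyond its model that was also near Ufsp1 and Srrt. The Ache start peak scored 61.69, below the band.

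Over the 40 related genes, 31 were marked, against 67.0% of all protein-coding genes. Of the 17 of their start sites with at least 12 CpG, 15 had a peak, against 95.4% of all such starts, and the exceptions were the vesicular transporter genes Slc18a3 and Slc32a1. Together with Th, Gad1 and the inner Tph1 start these made 5 CpG-rich starts without a peak, all of genes for making or packaging a transmitter. The CpG-rich starts of breakdown and cofactor genes in the table (Ache, Maoa, Aldh5a1, Gch1, Gchfr, Pts, Qdpr and Spr) all had one. That is near the 95.4% of all such starts. The CpG-rich starts of Ass1, Glud1, Glul, Moxd1, Prima1, Slc6a3 and Slc6a4, placed in neither group, had a peak as well. The division was not clean, since Gad2 (14 CpG), Slc18a2 (12 CpG) and Srr, the gene of the enzyme that makes D-serine (33 CpG), also serve to make or package a transmitter and had a start peak. The division also depends on where genes are placed. The cofactor is itself required by enzymes that make transmitters, and Ass1 recycles arginine for nitric oxide. With the cofactor genes placed among those for making a transmitter, only Ache, Maoa and Aldh5a1 would remain as CpG-rich breakdown starts. This grouping was made after the values were seen, and these genes are too few to test.

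**Figure D4:**
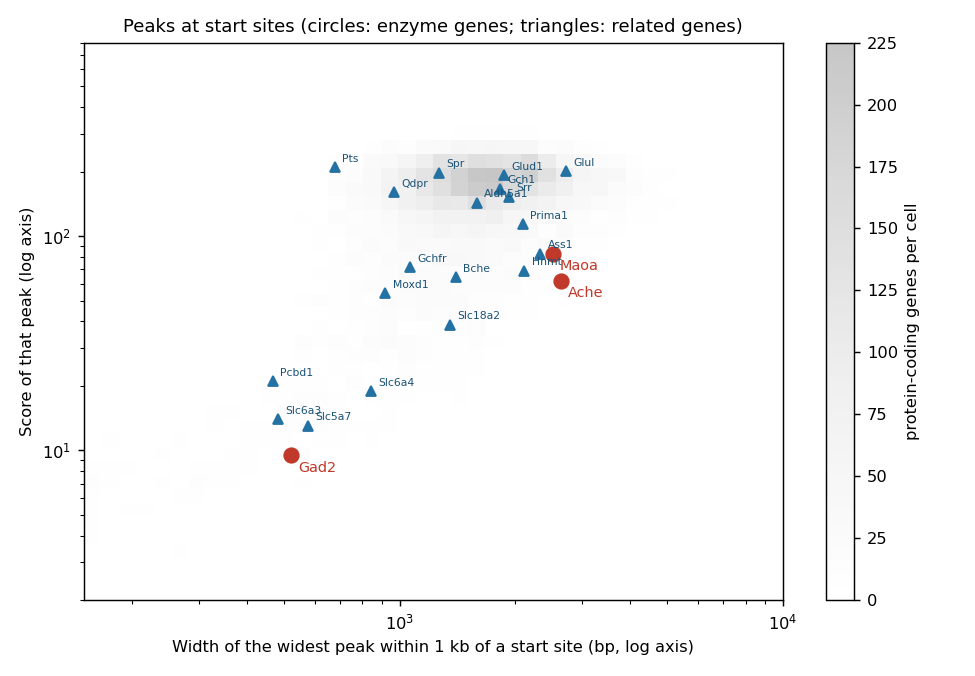
Width (x axis, bp, log scale) against score (y axis, log scale) of the widest peak within 1 kb of a start site, for enzyme genes (red circles), related genes (blue triangles) and all 11024 protein-coding genes with such a peak (grey shading, genes per cell). Maoa and Ache lie at 2510 and 2640 bp with scores of 82.78 and 61.69, right of and below the bulk of genes, and Gad2 at 522 bp and 9.48 near the lower left.

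The 6 unmarked enzyme genes did not lie in exceptionally long stretches without peaks. Their peak-free intervals ran from 69.5 kb at Tph1 to 448 kb at Tph2, with 105 kb at Dbh, 214 kb at Ddc and 307 kb at Th, against a median of 429 kb (quartiles 134 and 1230 kb) over the 6820 unmarked protein-coding genes that lie between peaks. Only Tph2 exceeded that median.

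Counts of marked genes depend on the score of the peaks. Among the best-scored 50% of peaks only Ache and Maoa of the 10 enzyme genes kept a peak, against 57.8% of all protein-coding genes, and among the best-scored 25%, from 140.8 upward, 0 of 10 did, against 37.3%. Sequencing depth is unknown, and a weak peak can be lost at low depth, so an unmarked gene is one without a called peak in this library.

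Nos1, the gene that defined the sort, was itself without a peak within 1 kb of its annotated start, whose window held 6 CpG. The only peak over its model (183 bp, score 13.01) began 71608 bp after that start. That peak also lay within 1 kb of the start of Gm26995, a gene not classed as protein-coding. A missing peak is therefore not read here as a silent gene.

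Markers of several gut cell types carried peaks in the same list, in which 67.0% of all protein-coding genes were marked, so several of these counts are near that share. All 8 neuronal markers did (highest score per gene 11.57 to 104.78), as did 4 of 5 nitrergic ones (4.67 to 146.8, Vip without a peak). Only 3 of the 5 nitrergic markers, Nos1 not among them, had a peak within 1 kb of a start. Of 6 cholinergic markers 2 had peaks (Slc5a7 and Penk, 13.05 to 27.24), and Chat, Slc18a3, Tac1 and Calb2 had none. Chat, Slc18a3 and Slc5a7 are also enzyme or related genes of this report, as are Nos1, Tph1 and Hdc in other marker lists. The counts of those lists therefore partly repeat results given for the same genes and are not separate evidence. All 5 markers of enteric glia (26.9 to 102.23), all 5 of smooth muscle (8.38 to 32.62) and all 3 of interstitial cells (21.79 to 31.49) had peaks. So did 3 of 5 epithelial (19.77 to 32.93), 2 of 3 endothelial (7.63 to 91.53) and 1 of 4 leukocyte markers (7.18). The part of these cells in the peaks of Ache and Maoa, which are known outside neurons too, was not tested. Of the cells known to make serotonin or histamine, enteroendocrine markers had peaks at 4 of 7 genes, none scored above 17.87 (Cck, Gcg and Tph1 had none). Within 1 kb of a start, 2 of these 7 genes had a peak (Chga and Chgb). Mast cell markers had a peak at 1 of 5 genes, Hdc, and it began 24287 bp after the start given. Cpa3, Cma1, Mcpt4 and Tpsb2 had none.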

How the data were processed

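One peak list, of the H3K4me3 immunoprecipitate, was used, and no file of the input library was analysed here. MACS2 called the peaks from paired-end reads, per the file headers. The submitters' processing notes name BWA, Picard, MACS2 and mm10, with neither role nor version. The score of each of the 29924 peaks was deposited by the authors (lowest 2.0, highest 702.61); its scale, the threshold and the treatment of duplicate reads are not stated in the header or labels. No read counts were used, so depth is unknown and no interval that needs it was computed. Low depth loses or splits weak peaks first.

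RefSeq gene models on GRCm38.p6 were used, which shares its chromosome coordinates with mm10. Start sites, strand and promoter windows came from a RefSeq promoter table of the same build, which matched all 10 enzyme genes and 25 of 40 related genes by gene ID. For the others a peak's place, where given, is relative to the model, and their peaks are not placed at a start. Overlaps were computed with Python 3.11.15 and pandas 2.3.3. The code was checked on simulated data, where it found each of 200 genes at which a peak had been placed. The named genes were the 10 enzyme genes and the related genes that had a peak or share a transmitter with them, plus genes whose model or flank their peaks also met; genes named beside the nearest outside peaks were added after the values were seen. A few related genes are counted but not reported here by name. Members and lists were chosen with earlier results of these data known, and the CpG classes were set after the files were seen.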

Additional observations from a re-analysis of the deposited data

How the results depend on the processing

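Of 12 alternatives, the count of marked enzyme genes (4 of 10) moved by over 1.5 times in 3. It was 2 among the best-scored 50% of peaks and 2 with 1 kb around both ends of the gene model (Ache and Maoa both times, since the Gad1 and Gad2 peaks are low-scored and lie inside their models), and 0 among the best-scored 25%. It was 5 with 2500 bp to each side, which added Ddc, 3 with 1 kb around the start site, which left out Gad1, and 4 with no flank, 500 bp, overlaps of at least 100 bp or 50% of the peak, peaks closer than 1 kb merged, peaks at least 300 bp wide, and peaks not within 1 kb of another protein-coding gene model. Among the best-scored 25% of peaks, 12 of 40 related genes and 8161 of all protein-coding genes had a peak. The width and score of the widest peak of Ache, Maoa, Gad1 and Gad2 were the same in every alternative that kept the peak. This says little, because apart from the merging of close peaks no alternative could alter the width or score of a peak it kept. Chat, Th, Dbh, Tph1 and Tph2 had no peak in any of the 12. No paired analysis was possible because there was 1 library of each kind and the values come from no test. Unknown depth limits what an absent peak shows.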

Other observations

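For histamine, Hdc, the synthetic enzyme gene, had no peak at the start given for it and 1 peak (331 bp, score 12.54), which began 24287 bp after that start, while Hnmt, whose product inactivates histamine, had a 2116-bp start peak scored 68.97, with 4 CpG in its window. For nitric oxide, the arginine-recycling genes Ass1 (2330 bp, score 82.87) and Asl (899 bp, score 123.16) were marked, whereas Nos2, the inducible synthase gene, had a single 295-bp peak scored 13.01 inside its model. Nos3, the endothelial synthase gene, had a 1006-bp peak scored 79.07 inside its model near the upper end, also within 1 kb of Atg9b. For D-serine, the synthetic gene Srr had a 1933-bp start peak scored 152.96 (also within 1 kb of Smg6), and Dao, the gene of the oxidase that degrades it, had none.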
